A study of Homo sapiens with 36 samples.

Results

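The question addressed here was where the H3K27ac response to 14 days of trametinib differed between 2 subpopulations of SUM-229PE, a human triple-negative breast cancer cell line. For each region the response was the log2 fold change of day 14 over day 0, and the response difference was the NEG response minus the POS response, that is, the interaction of subpopulation and day. Members were the H3K27ac regions of the NEG day 14 table and of the POS day 14 table that matched 1 to 1 by a reciprocal overlap of at least 50%. This gave 15794 regions of 434639 in the 7 count tables of the series, and 11696 of them had the same start in both tables. All 15794 passed the filter on low counts. A further 12445 regions of the NEG table and 28549 of the POS table had no match and are outside every count below.

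The 4 groups were NEG at day 14, NEG at day 0, POS at day 14 and POS at day 0, with 2 H3K27ac libraries each. Per the labels, POS cells are EpCAM+CD49f+ and NEG cells are EpCAM-CD49f-, isolated from the same line by fluorescence-activated sorting. Day 14 cells were on chronic 10 nM trametinib and day 0 cells are the DMSO control. No group was held for 14 days without drug, so drug and time in culture cannot be told apart in any response. Other libraries of the series were used as separate readouts of the same regions: 30 nM trametinib for 24 hours and its DMSO control in both subpopulations, JUNB in both subpopulations in DMSO, and the samples POSR1 and POSR2, which the labels do not describe further. The labels do not say that replicates were separate cultures, so every p-value measures the spread between these libraries, which may be technical. In the day 14 fit that spread was pooled over all regions and not taken from each region's own libraries. Regions are given by their coordinates in hg19, those of the NEG table, and were not assigned to genes, so that the sorting markers could not be checked at their loci.

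H3K27ac, acetylation of lysine 27 of histone H3, is deposited at active promoters and enhancers, and its loss at an enhancer usually accompanies loss of activity. Trametinib inhibits MEK, the kinase that activates ERK, and ERK signalling feeds into enhancers through transcription factors of the ETS and AP-1 families. JUNB is an AP-1 subunit. In breast epithelium EpCAM and CD49f, an integrin subunit, are surface proteins used to sort epithelial cell states.

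The response difference was called at most regions in edgeR but not in DESeq2, which called it at 7666 of the 15794. In edgeR (quasi-likelihood test, Benjamini-Hochberg adjusted p under 0.05 over all regions) the difference was called at 9891 regions, 62.6% of those tested. The NEG response was the higher of the 2 at 5036 of them (31.9% of those tested) and the POS response at 4855 (30.7%). At 6116 regions (38.7%) the called difference was 2-fold or more. In the same fit, POS itself responded at more regions and by more than NEG. The NEG response was called at 7835 regions (49.6%), up at 23.0% and down at 26.7%, with a median absolute log2 change of 0.42 over all regions. The POS response was called at 12515 (79.2%), up at 39.1% and down at 40.1%, with a median of 0.90. The balance of up and down in POS depended on the scaling, as given below. In such bulk libraries a change in the share of cells that carry the mark and a change of the mark per cell cannot be told apart. The typical standard errors of the 2 responses were close, with medians of 0.18 in NEG and 0.17 in POS. The last region inside the threshold had a difference of -0.54 ± 0.25 (SE) and the first outside had -0.45 ± 0.21. Of 457 regions just inside the overlap minimum, at 50 to 60%, 286 (62.6%) had a called difference, and of 382 just outside, at 40 to 50%, 245 (64.1%) did.

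Among the 9891 regions with a called difference, the common form was a response called in POS and not in NEG. This held at 4775 regions (48.3%), of which 2578 went up and 2197 went down in POS. NEG was the one called alone at 904 regions (9.14%), 466 up and 438 down. Called responses ran in opposite directions at 1503 regions (15.2%), with 754 up in NEG and down in POS and 749 down in NEG and up in POS. At 2571 regions (26.0%) both responses were called the same way but differed in size, and in 2270 of these (88.3%) the larger was that of POS. At the other 138 regions neither response was called on its own. These classes combine calls of the same fit, so their sizes and medians are descriptions.

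**Figure D1:**
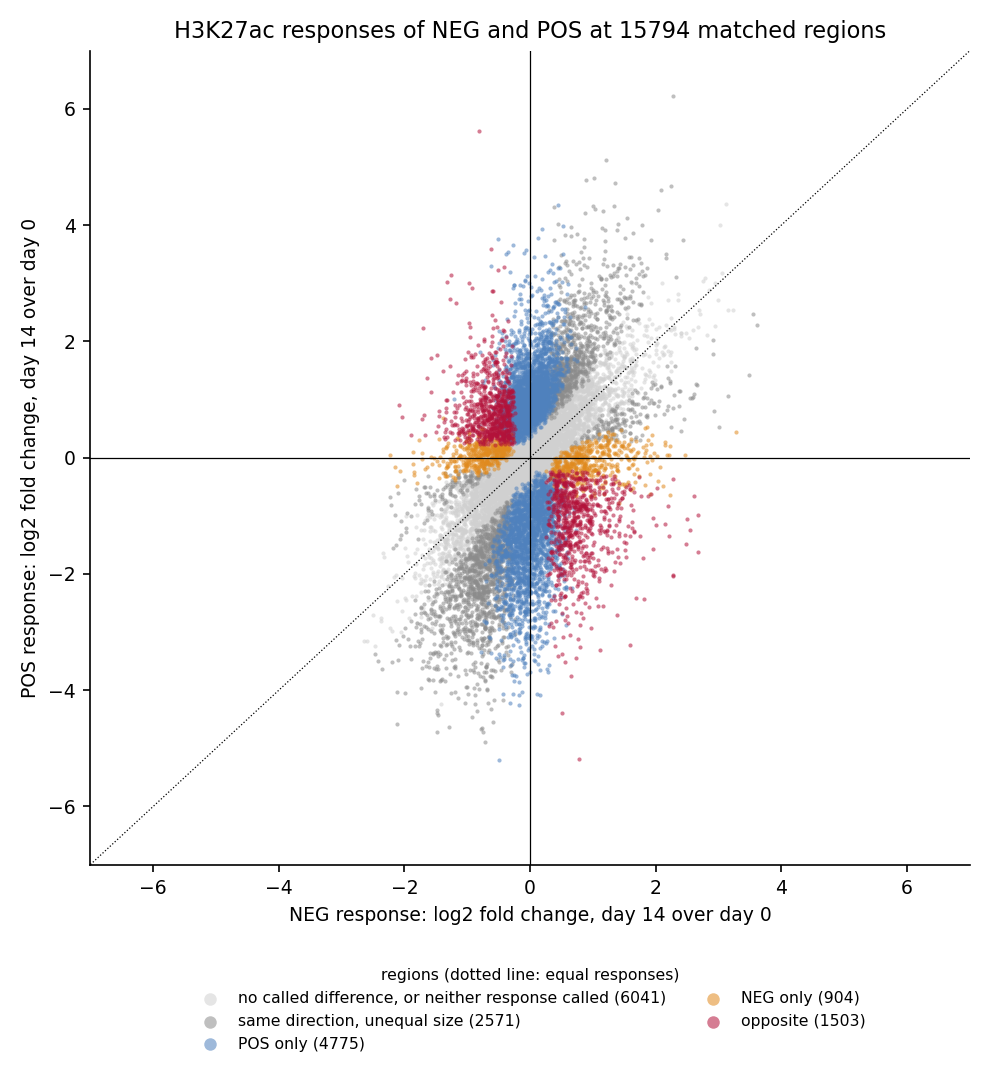
NEG response (x axis) and POS response (y axis), both as log2 fold change of day 14 over day 0, at each of the 15794 matched regions, coloured by class. The cloud is taller than it is wide, which shows the larger POS responses, and the 1503 regions with opposite calls fill the upper left and lower right parts of the plot.

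How the libraries were scaled to each other moved the balance between the classes. With TMM over the matched regions, NEG was higher in 50.9% of the called differences, against 65.6% with total counts and 75.7% with the TMM factors and sizes of the full tables. Those 2 scalings shifted the median difference of all regions to 0.34 and 0.54 on the log2 scale, against 0.02. They shifted the median POS response to -0.25 and -0.54, against -0.03. POS was called up at 5232 of 12585 called regions with total counts and at 3855 of 12558 with full-table TMM. With TMM over the matched regions it was 6179 of 12515. Regions up in NEG and down in POS then numbered 1198 and 1219, and regions down in NEG and up in POS 428 and 310. TMM computed within each subpopulation gave 810 and 710. Cyclic loess within each subpopulation, chosen after the data were seen, gave 881 and 555.

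The classes differed in how many regions held their class in all 5 of these scalings. Of the 754 regions up in NEG and down in POS, 542 (71.9%) held it, and of the 749 down in NEG and up in POS, 206 (27.5%) did. In POS alone, 978 of 2578 upward and 1284 of 2197 downward regions held their class. In NEG alone 12 of 466 upward and 5 of 438 downward regions did (2.58% and 1.14%). Membership of the NEG-only classes thus depended on the scaling at nearly all of their regions. In every fit that left out 1 library, 305 regions up in NEG and down in POS (40.5%) and 270 of the mirror class (36.0%) held their class. With all 5 scalings, DESeq2 and a replicate block asked for as well, 263 and 109 held it. Other filters, other overlaps and a stricter adjusted p were not part of that joint count. Totals that stayed close thus hid a turnover of regions. The response difference itself was called at all 28 regions named below by rank, under each alternative that could be run for them.

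**Figure D2:**
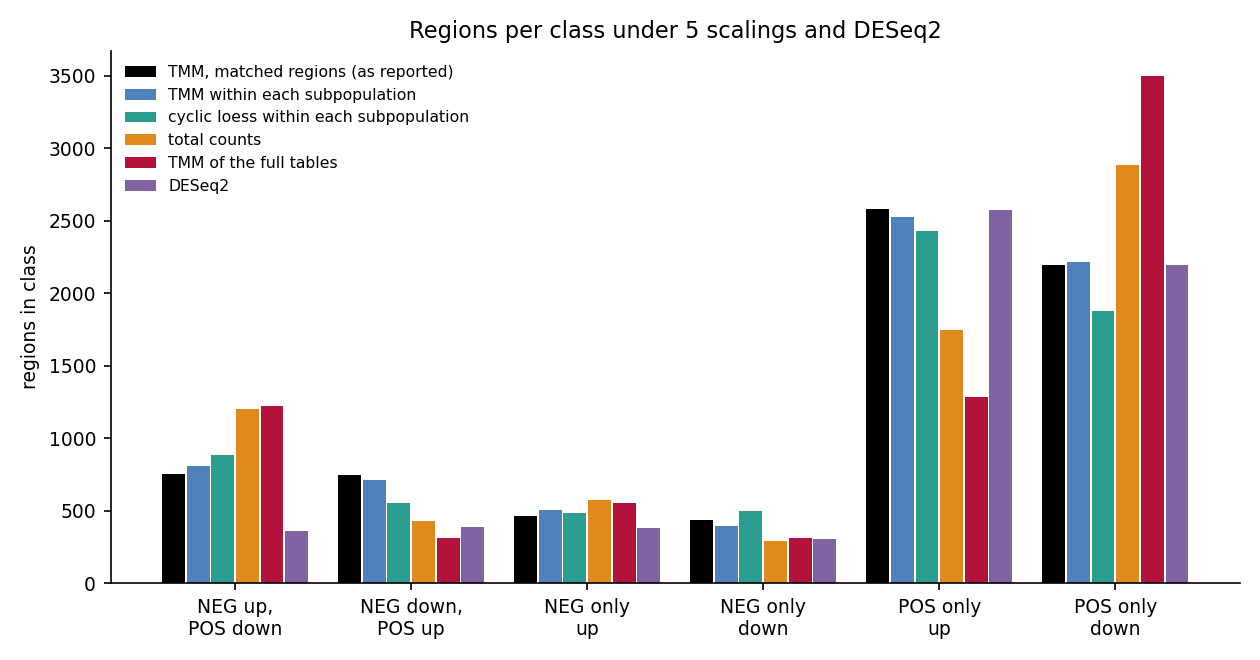
Number of regions (y axis) in each of the 6 opposite or single-subpopulation classes (x axis) under 5 scalings and under DESeq2 with its own size factors. With total counts or full-table TMM the NEG up, POS down bars are taller (1198 and 1219, against 754) and the NEG down, POS up bars shorter (428 and 310, against 749).

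The 754 regions up in NEG and down in POS had a median NEG response of 0.70 (quartiles 0.52 and 0.95) and a median POS response of -1.02 (quartiles -1.54 and -0.65), on the log2 scale. At the median, their levels crossed over. The median log2 ratio of NEG over POS was 1.34 at day 14 (quartiles 0.39 and 2.29), against -0.56 at day 0 (quartiles -1.44 and 0.25). Some of the regions thus stood higher in NEG already at day 0. In 80 of them both responses were 2-fold or more. There were 145 past that mark with total counts and 153 with full-table TMM, and 82 to 98 without any 1 library.

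The mirror class, 749 regions down in NEG and up in POS, had a median NEG response of -0.59 and a median POS response of 0.74. Of this class, 206 regions held it in all 5 scalings, with medians of -0.73 in NEG and 1.22 in POS in the reported fit. For the 542 regions up in NEG and down in POS that held theirs, the medians were 0.71 in NEG and -1.16 in POS. Total counts and full-table TMM lowered the median POS response to -0.25 and -0.54. Upward POS regions thus had to respond more to hold their class. The order of the 2 classes by size of response therefore cannot be read from the regions kept. In all 749 regions of the mirror class, the median log2 ratio of NEG over POS was -1.16 at day 14 and 0.20 at day 0. They were stronger regions, with a median mean level of 6.54 log2 CPM (counts relative to the scaled matched-region total of a library), against 5.49 for the 754 and 5.60 for all regions. Both responses were 2-fold or more in 26 of them, a count that was 42 without NEG day 14 replicate 1 and 23 to 34 without any other single library. With total counts it was 12, with full-table TMM 9 and with a mean count of at least 50 it was 15.

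The regions named here were taken by rank among called differences of 2-fold or more with an average level no lower than the median, where the libraries of the 2 days did not overlap in the responding subpopulation. At chr8:67383053-67384054, H3K27ac was 111 and 111 CPM in NEG at day 14 and 20.4 and 25.9 CPM in NEG at day 0. In POS it was 20.0 and 16.2 CPM at day 14 and 76.3 and 72.2 CPM at day 0. The subpopulation with the high level thus changed places. No library of one day overlapped the other day, as the choice of regions required. The responses were 2.28 ± 0.16 (SE) in NEG and -2.03 ± 0.18 in POS, and the difference was 4.32 ± 0.24 (adjusted p = 1.08e-68, edgeR quasi-likelihood).

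The difference was larger still at chr6:125064476-125065477. Values there were 48.1 and 45.1 CPM in NEG at day 14 and 16.5 and 14.0 CPM in NEG at day 0, against 13.8 and 19.2 CPM in POS at day 14 and 158 and 147 CPM in POS at day 0. POS lost most of its signal, to a level like that of NEG at day 0, while NEG gained. The difference was 4.80 ± 0.28 (SE; adjusted p = 1.53e-64, edgeR quasi-likelihood).

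At the other 2 regions named in this class, chr3:186887822-186888823 and chr6:12354710-12355711, POS started well above NEG. The first had 85.0 and 89.6 CPM in NEG at day 14 and 18.8 and 26.95 CPM in NEG at day 0, against 54.9 and 63.3 CPM in POS at day 14 and 170 and 180 CPM in POS at day 0. The second had 72.2 and 66.4 CPM in NEG at day 14 and 25.0 and 20.2 CPM in NEG at day 0, against 76.4 and 78.5 CPM in POS at day 14 and 206 and 186 CPM in POS at day 0. At the first NEG ended above POS, with a log2 ratio of 0.57 at day 14. At the second the levels met, and the log2 ratio of NEG over POS was -0.16 at day 14 (adjusted p = 0.31, edgeR quasi-likelihood) and -3.10 at day 0. The response differences were 3.53 ± 0.21 and 2.94 ± 0.22 (SE).

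In the mirror class the first region by rank was chr20:55622121-55623122. It had 51.0 and 31.0 CPM in NEG at day 14 and 135 and 130 CPM in NEG at day 0, against 230 and 239 CPM in POS at day 14 and 46.6 and 54.4 CPM in POS at day 0. Here too the higher subpopulation changed, with NEG above POS at day 0 and far below it at day 14. The difference was -3.95 ± 0.19 (SE; adjusted p = 3.4e-89, edgeR quasi-likelihood). The POS table's region starts 470 bases farther along, so the 2 subpopulations were counted over windows that overlap in part, and the region has no match at an overlap of 80%.

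At chr17:47178394-47179395 the values nearly swapped, with 23.4 and 24.5 CPM in NEG at day 14 and 68.1 and 65.8 CPM in NEG at day 0, against 81.6 and 72.9 CPM in POS at day 14 and 22.7 and 22.8 CPM in POS at day 0. The difference was -3.25 ± 0.25 (SE). At chr7:7162563-7163564, a region almost without signal in POS at day 0, values were 39.6 and 54.8 CPM in NEG at day 14 and 120 and 111 CPM in NEG at day 0, against 39.1 and 51.2 CPM in POS at day 14 and 5.43 and 8.88 CPM in POS at day 0. The subpopulations met there at day 14, with a log2 ratio of NEG over POS of 0.08, and the difference was -4.02 ± 0.28. At chr19:33783665-33784666 the subpopulations were close at day 0 and parted, with 26.2 and 22.6 CPM in NEG at day 14 and 50.0 and 60.6 CPM in NEG at day 0, against 143 and 142 CPM in POS at day 14 and 56.8 and 61.6 CPM in POS at day 0. The difference was -2.45 ± 0.23. All 8 regions kept their opposite class in the 5 scalings.

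**Figure D3:**
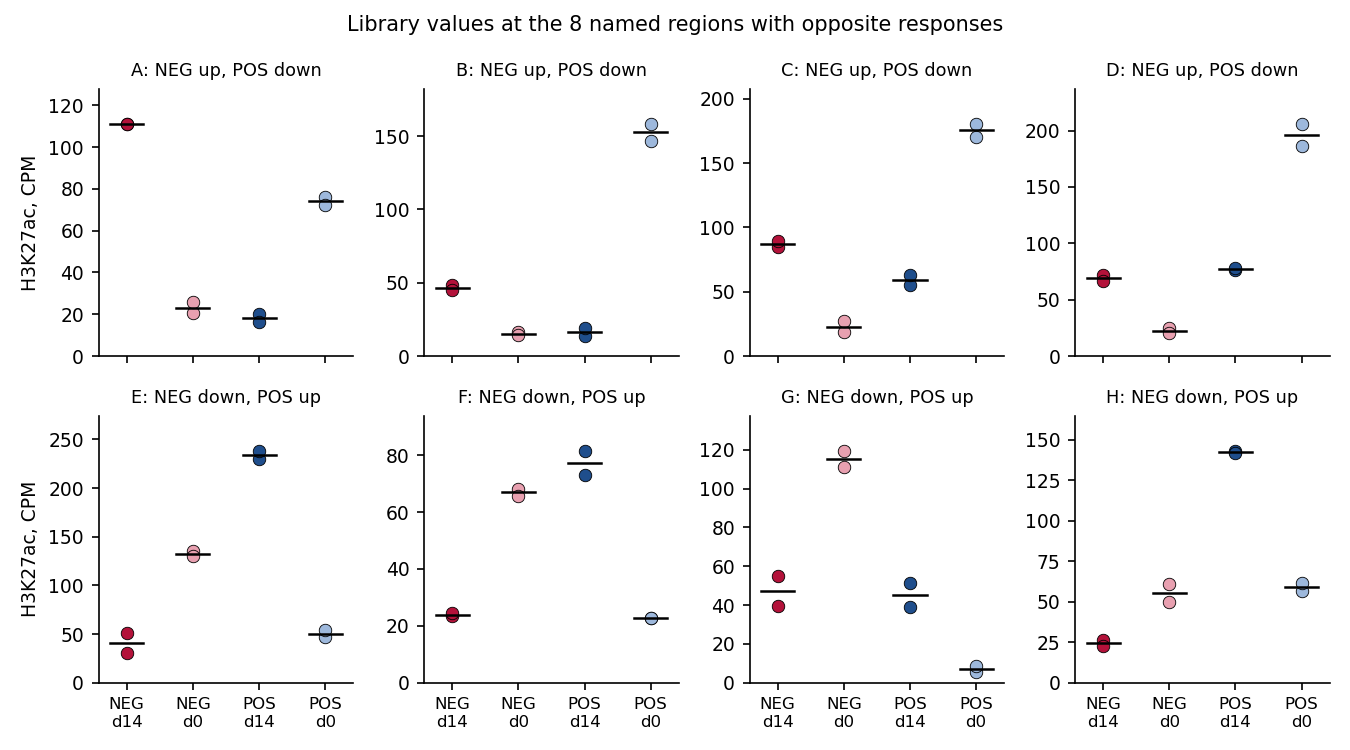
H3K27ac in CPM (y axis, from 0) in each library (points) of the 4 groups (x axis, d14 and d0 for the days), with bars at the mean of 2 libraries. Panels A to D are chr8:67383053-67384054, chr6:125064476-125065477, chr3:186887822-186888823 and chr6:12354710-12355711, and panels E to H are chr20:55622121-55623122, chr17:47178394-47179395, chr7:7162563-7163564 and chr19:33783665-33784666. In each panel NEG and POS move in opposite directions and the 2 days do not overlap, as the choice of these regions required.

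Regions called in 1 subpopulation can still have moved in the other by less than the test resolves. A narrower set therefore asked for a response of 2-fold or more in the one and a 95% interval of the other response within a 1.5-fold change either way. For NEG this left 96 upward and 64 downward regions, and for POS 832 upward and 783 downward. These counts moved with the settings. The POS sets were 548 and 487 without NEG day 14 replicate 2 and 221 and 1263 with full-table TMM, the upward one was 394 with total counts and 552 with cyclic loess, and the downward one was 339 with DESeq2. The upward NEG set was 41 with DESeq2 and 62 without POS day 14 replicate 1, and the downward NEG set was 35 with total counts and 42 with a mean count of at least 50.

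Of the upward NEG regions, chr3:191073815-191074816 approached the POS level in NEG. It had 134 and 153 CPM in NEG at day 14 and 30.8 and 31.6 CPM in NEG at day 0, against 207 and 221 CPM in POS at day 14 and 217 and 193 CPM in POS at day 0. POS libraries overlapped between the days, and the 95% interval of the POS response ran from -0.15 to 0.25. The NEG response was 2.21 ± 0.15 (SE) and the difference 2.15 ± 0.18 (adjusted p = 1.13e-29, edgeR quasi-likelihood). The region left the class with total counts, full-table TMM and cyclic loess.

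At chr1:41966068-41967069, the 1 named upward NEG region that held its class in all 5 scalings, values were 79.998 and 70.3 CPM in NEG at day 14 and 14.2 and 18.1 CPM in NEG at day 0, against 64.9 and 56.7 CPM in POS at day 14 and 55.6 and 48.3 CPM in POS at day 0. The POS libraries of day 14 were both slightly above those of day 0, and the difference was 2.02 ± 0.24 (SE). The other named upward regions, chr3:154903274-154904275 and chr5:174714762-174715763, had differences of 2.19 ± 0.29 and 1.94 ± 0.29. Both left the class with full-table TMM. At chr3:154903274-154904275 the POS libraries of day 0 had 11.8 and 25.0 CPM, and the difference ran from 1.69 to 2.77 over the alternatives. NEG was the higher subpopulation there already at day 0, with a log2 ratio of NEG over POS of 3.75 at day 14 and 1.56 at day 0. At chr5:174714762-174715763 NEG was lower at both days.

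Among the downward NEG regions, chr8:128323220-128324221 carried high signal in both subpopulations before treatment. It had 86.4 and 81.9 CPM in NEG at day 14 and 401 and 388 CPM in NEG at day 0, against 504 and 506 CPM in POS at day 14 and 516 and 455 CPM in POS at day 0. NEG lost most of its signal and POS libraries overlapped between the days. The difference was -2.28 ± 0.16 (SE; adjusted p = 1.05e-44, edgeR quasi-likelihood), and -1.17 with cyclic loess. At chrX:107642574-107643575 values were 27.6 and 23.9 CPM in NEG at day 14 and 117 and 111 CPM in NEG at day 0, against 242 and 226 CPM in POS at day 14 and 264 and 256 CPM in POS at day 0. The difference was -2.001 ± 0.20, and -1.28 with cyclic loess. The remaining named regions, chr5:110235154-110236155 and chr6:45593230-45594231, had differences of -1.83 ± 0.20 and -1.77 ± 0.24, and none of the 4 held its class in all 5 scalings.

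The POS-only classes held the largest single-subpopulation changes. At chr12:1714256-1715257 values were 53.1 and 38.0 CPM in NEG at day 14 and 50.4 and 43.5 CPM in NEG at day 0, against 227 and 223 CPM in POS at day 14 and 18.8 and 18.9 CPM in POS at day 0. NEG libraries overlapped between the days, and POS was below NEG at day 0 and far above it at day 14. The POS response was 3.57 ± 0.14 (SE) and the difference -3.64 ± 0.23 (adjusted p = 1.39e-52, edgeR quasi-likelihood). At chr6:52783138-52784139 both subpopulations were low at day 0, and values were 17.7 and 12.3 CPM in NEG at day 14 and 16.2 and 15.5 CPM in NEG at day 0, against 212 and 213 CPM in POS at day 14 and 17.2 and 20.5 CPM in POS at day 0. The difference was -3.62 ± 0.33. At chr3:46014139-46015140 and chr19:39327600-39328601 it was -3.89 ± 0.27 and -3.75 ± 0.32. All 4 held their class in the 5 scalings.

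The first downward POS region by rank was chr5:81684612-81685613, with 170 and 174 CPM in NEG at day 14 and 165 and 154 CPM in NEG at day 0, against 3.82 and 6.08 CPM in POS at day 14 and 89.4 and 75.0 CPM in POS at day 0. POS signal was nearly lost while NEG stayed within 0.32 on the log2 scale at its upper 95% bound. The difference was 4.17 ± 0.27 (SE; adjusted p = 2.97e-51, edgeR quasi-likelihood). At chr2:224563661-224564662 values were 43.2 and 44.5 CPM in NEG at day 14 and 60.8 and 46.6 CPM in NEG at day 0, against 15.7 and 12.2 CPM in POS at day 14 and 254 and 270 CPM in POS at day 0. NEG libraries of day 14 were both below those of day 0 without passing the test (-0.31 ± 0.17). The difference there was 3.90 ± 0.26, at chr2:206633530-206634531 it was 3.96 ± 0.24, and at chr11:65782314-65783315 it was 3.91 ± 0.27. Of these 4, chr2:224563661-224564662 held its class in all 5 scalings.

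When both responses were called the same way, the larger was that of POS at 891 of 1073 upward and 1379 of 1498 downward regions. The strongest upward case, chr22:31588475-31589476, had 41.1 and 36.8 CPM in NEG at day 14 and 7.31 and 8.81 CPM in NEG at day 0, against 197 and 205 CPM in POS at day 14 and 1.92 and 3.89 CPM in POS at day 0. Its smallest count was 6 reads, and the difference was -3.94 ± 0.46 (SE). The strongest downward case, chr10:79497576-79498577, had 40.4 and 48.4 CPM in NEG at day 14 and 72.7 and 77.7 CPM in NEG at day 0, against 4.77 and 5.07 CPM in POS at day 14 and 150 and 107 CPM in POS at day 0. Larger NEG responses in the same direction were fewer, 182 up and 119 down, and 54 down without POS day 14 replicate 1. With DESeq2 there were 87 up and 31 down with the larger response in NEG, and 485 up and 684 down with the larger response in POS. Full-table TMM gave 414 up with the larger response in POS and 73 down with the larger response in NEG. The larger NEG responses were led by chr2:191143765-191144766 (difference 2.47 ± 0.29) and chr18:2304358-2305359 (-1.63 ± 0.22). At the first, NEG at day 0 had 3.08 and 10.4 CPM, and the difference was 1.74 without the first of these libraries and 3.47 without the second.

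POS and NEG stood farther apart at day 14 than at day 0. The median absolute log2 ratio of NEG over POS was 1.02 at day 14 and 0.72 at day 0, and the ratio was 2-fold or more and called at 8035 regions at day 14 and 5764 at day 0. The 2 subpopulations were closer at day 14 at 5707 of the 15794 regions (36.1%). The class with both responses upward and larger in NEG was the exception among the classes, with 145 of 182 regions (79.7%) closer at day 14. The narrower set up in NEG and within 1.5-fold in POS had 65 of 96 (67.7%). These ratios come from the libraries that defined the classes, so the shares are descriptions. The spread of levels within a library moved with the same groups. The SD of log2 CPM over regions was 1.03 and 1.04 in NEG at day 14 and 1.14 and 1.10 in NEG at day 0, against 1.63 and 1.63 in POS at day 14 and 1.32 and 1.21 in POS at day 0. Its part in the larger POS responses was not tested.

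Trametinib for 24 hours gave a readout from libraries the classes did not use, although at another dose. The acute response difference was called at 25.6%, with NEG higher at 14.1% and with POS higher at 11.5% of the 18186 regions matched between the acute tables, and 10405 of the day 14 regions could be placed among them. In those 10405, 16.4% were called NEG higher and 12.4% POS higher. Of the regions up in NEG and down in POS at day 14, 468 could be placed, and the acute difference was called NEG higher at 209 (44.7%) and POS higher at 12 (2.56%). Of the mirror class, 523 could be placed, with POS higher at 179 (34.2%) and NEG higher at 12 (2.29%). Among regions with 2-fold changes each way the first share was 32 of 51 and the second 8 of 12. The narrower sets that held their class in all 5 scalings, a choice made after the data were seen, gave 161 of 341 (47.2%) and 66 of 136 (48.5%).

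Fully opposite acute responses were rarer than a called acute difference. NEG was called up and POS called down acutely at 41 of the 468 regions (8.76%), against 155 of all 10405 (1.49%). NEG was called down and POS up at 44 of the 523 (8.41%), against 189 of all (1.82%). The reverse acute pattern was seen at 0 of the 468 and at 1 of the 523. At chr20:55622121-55623122 the acute responses were -1.53 in NEG and 1.17 in POS, each called, and the acute difference was -2.69 (adjusted p = 2.1e-19, edgeR quasi-likelihood). At chr8:67383053-67384054, by contrast, the acute difference was 0.53 and was not called (adjusted p = 0.06, edgeR quasi-likelihood). The acute window overlaps that region only in part, so part of it was not measured acutely. Over the 10405 regions the 2 differences had a Pearson r of 0.42 and a Spearman rho of 0.37. Regions are not independent replicates, and the 2 measures share base composition and mappability but no library.

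NEG also responded acutely at some of the POS-only regions. Acute trametinib lowered H3K27ac in POS at 840 of 1366 placed regions of the downward POS-only class (61.5%) and in NEG at 493 (36.1%). In all 10405 regions these shares were 33.8% in POS and 26.5% in NEG, and over the acute tables as a whole 29.6% and 22.0%, where any acute response was called at 59.0% in POS and 42.6% in NEG. At chr2:224563661-224564662 the acute responses were -1.67 in NEG and -2.04 in POS, both called, while at day 14 the POS response alone was called. The acute window overlaps this region only in part. At chr5:81684612-81685613 they were -0.39 in NEG and -2.66 in POS, with an acute difference of 2.27 (adjusted p = 2.9e-15, edgeR quasi-likelihood). In the downward class with the larger response in POS, NEG was lowered acutely at 678 of 897 regions (75.6%) and POS at 754 (84.1%). For upward POS-only regions, acute trametinib raised H3K27ac in POS at 736 of 1826 (40.3%), against 27.7% of all placed regions and 29.4% over the acute tables. It raised H3K27ac in NEG at 413 (22.6%), against 20.6% of all placed regions and 20.5% over the acute tables. At chr12:1714256-1715257, where the acute window also overlaps only in part, the acute responses were 0.45 in NEG and 1.80 in POS. The acute difference there was -1.35 (adjusted p = 2.9e-08, edgeR quasi-likelihood).

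NEG and POS in the DMSO libraries of the acute experiment showed on which side the regions started, again apart from the libraries that defined the classes. NEG over POS was called at 76.5% of the 57023 regions of that table, higher at 38.0% and lower at 38.6%, and at 36.6% and 32.8% of the 13052 day 14 regions placed in it. Regions up in NEG and down in POS at day 14 tended to start lower in NEG, called lower at 331 of 613 (54.0%) and higher at 135 (22.0%). Their median log2 ratio was -0.56, against 0.07 over all. The mirror class started lower in NEG at 151 of 630 (24.0%) and higher at 255 (40.5%), with a median of 0.18. Of the 10 classes with a called response, regions up in both and more so in NEG started lowest in NEG, called lower at 119 of 158 (75.3%) with a median of -1.12. The narrower set up in NEG and within 1.5-fold in POS was lower in NEG at 62 of 82 (75.6%), with a median of -1.28. All 4 named regions up in NEG and down in POS were lower in NEG in DMSO, from -1.85 at chr8:67383053-67384054 to -3.17 at chr6:12354710-12355711.

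Split into 5 groups of equal size by the DMSO ratio, from lowest to highest in NEG, the groups held 236, 137, 92, 86 and 62 of the regions up in NEG and down in POS. They held 67, 126, 162, 123 and 152 of the mirror class, which was thus fewest in the lowest group and most in the middle one. The median response difference was 0.33 in the lowest group and -0.13 in the highest. Across all 13052 regions, the relation between the day 14 difference and the DMSO ratio had a Pearson r of -0.19 and a Spearman rho of -0.16, a weak relation given as a description. The acute and DMSO readouts share the DMSO libraries, so they are given side by side and not compared.

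POSR1 and POSR2, averaged and set over POS, gave the third separate readout, with the same POS libraries as above. Any difference between POSR1 and POSR2 does not enter the error of these calls. POSR over POS was called at 59.6% of the 53524 regions of its table, higher at 28.2% and lower at 31.5%, and at 30.3% and 34.0% of the 13191 day 14 regions placed in it. It was higher at 1198 of 2171 upward POS-only regions (55.2%) and lower at 1002 of 1822 downward ones (55.0%). Where both responses ran the same way and POS moved more, POSR was higher at 431 of 693 upward regions (62.2%) and lower at 791 of 1164 downward ones (68.0%). In the NEG-only classes it was higher at 97 of 373 upward regions (26.0%) and lower at 122 of 363 downward ones (33.6%), shares near those of all regions. Regions down in NEG and up in POS were higher in POSR at 245 of 636 (38.5%), and regions up in NEG and down in POS were lower in POSR at 288 of 627 (45.9%).

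**Figure D4:**
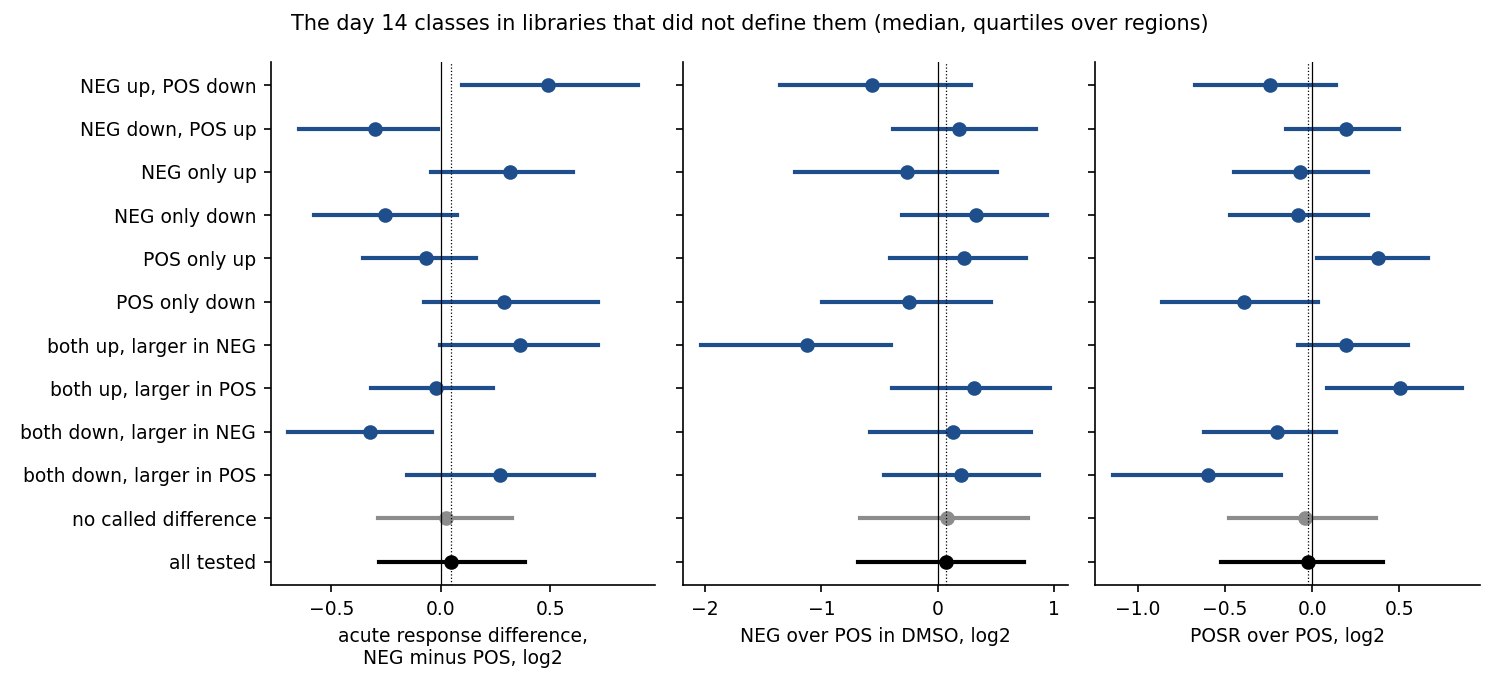
Median (points) and quartiles (lines) over regions, on the log2 scale (x axes), of 3 readouts from libraries that did not define the classes (rows): the acute response difference, NEG over POS in DMSO, and POSR over POS. The dotted line is the median of all regions tested. The acute difference lies on the side of the day 14 difference in the opposite classes, with medians of 0.49 and -0.30, and POSR follows the POS-only classes, with medians of 0.38 and -0.39.

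JUNB was measured in DMSO. A JUNB site lay in 14437 of the 15794 regions (91.4%), and in 728 of the 754 regions up in NEG and down in POS (96.6%), 689 of the 749 of the mirror class (92.0%), 2286 of 2578 upward POS-only regions (88.7%) and 2080 of 2197 downward ones (94.7%). JUNB was called different at 57.9% of the 141580 sites tested, higher in NEG at 29.4% and lower at 28.5%, and at 31.4% and 17.7% of the 14405 day 14 regions with a tested site, where the site of highest level stands for its region. JUNB in NEG was higher at 670 of 1314 downward regions with the larger response in POS (51.0%). It was lower in NEG at 91 of 171 upward regions with the larger response in NEG (53.2%), the class that, of the 10, also started lowest in NEG H3K27ac. In the regions up in NEG and down in POS, JUNB was higher in NEG at 196 and lower at 189 of 727. In the mirror class it was higher in NEG at 227 and lower at 102 of 689 (32.9% and 14.8%), shares near those of all regions.

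Neighbouring regions often differed in the same direction. Of 354 neighbouring pairs with starts under 5 kb apart and both differences called, 310 (87.6%) had the same sign. The share was 72.4% of 2663 pairs at 5 to 50 kb, 58.6% of 2828 at 50 to 500 kb and 51.7% of 470 beyond 500 kb. No pair of matched regions overlapped. Runs of 1 region numbered 570 for NEG up and POS down and 619 for NEG down and POS up. These classes held 4.77% and 4.74% of all regions, and classes this small leave most regions alone in any case. The counts of single regions therefore do not show isolation.

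The 4 longest runs of consecutive matched regions in one opposite class, of 5 or 4 regions, were picked after their values were seen, with 4 kept because of a tie. At chr18:3593717-3653769 (60.1 kb), 5 regions had NEG responses between -0.98 and -0.44 and POS responses between 0.62 and 1.57. In its strongest region, chr18:3652768-3653769, values were 77.2 and 61.3 CPM in NEG at day 14 and 128 and 118 CPM in NEG at day 0, against 355 and 342 CPM in POS at day 14 and 121 and 112 CPM in POS at day 0. The subpopulations started level there and parted, and the 4 regions of this run placed in the DMSO table had log2 ratios of NEG over POS between -0.16 and 0.26.

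The run at chr17:38715952-39010948 (295 kb) had the same direction, with 4 regions whose NEG responses lay between -0.98 and -0.35 and whose POS responses lay between 1.70 and 3.00. At chr17:39005972-39006973 values were 33.3 and 44.5 CPM in NEG at day 14 and 70.4 and 85.5 CPM in NEG at day 0, against 339 and 356 CPM in POS at day 14 and 44.1 and 42.2 CPM in POS at day 0. The difference was -3.98 ± 0.20 (SE; adjusted p = 3.3e-81, edgeR quasi-likelihood).

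The 2 runs up in NEG and down in POS both started far lower in NEG. At chr1:168591800-168679512 (87.7 kb) the NEG responses of 5 regions lay between 0.61 and 1.87 and the POS responses between -1.92 and -0.65, and the DMSO ratios of the 4 placed regions between -2.81 and -2.41. The run's region chr1:168659473-168660474 is thinly covered, with 4.23 and 4.15 CPM in NEG at day 0. At chr3:186780139-186926315 (146 kb) the NEG responses of 4 regions lay between 0.84 and 2.28 and the POS responses between -1.56 and -0.36. At chr3:186903929-186904930 values were 217 and 216 CPM in NEG at day 14 and 40.4 and 49.8 CPM in NEG at day 0, against 242 and 244 CPM in POS at day 14 and 325 and 296 CPM in POS at day 0. The acute difference was called with NEG higher at all 3 regions of this run that were placed, between 1.05 and 1.72. It was called in the direction of the day 14 difference at 2 of 3 placed regions of the run on chromosome 1, at 1 of 3 on chromosome 17 and at 0 of 4 on chromosome 18, where adjusted p ran from 0.068 to 0.86 (edgeR quasi-likelihood). The class was held in all 5 scalings by 3 of 5, 3 of 4, 4 of 5 and 4 of 4 regions of the runs on chromosomes 18, 17, 1 and 3.

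**Figure D5:**
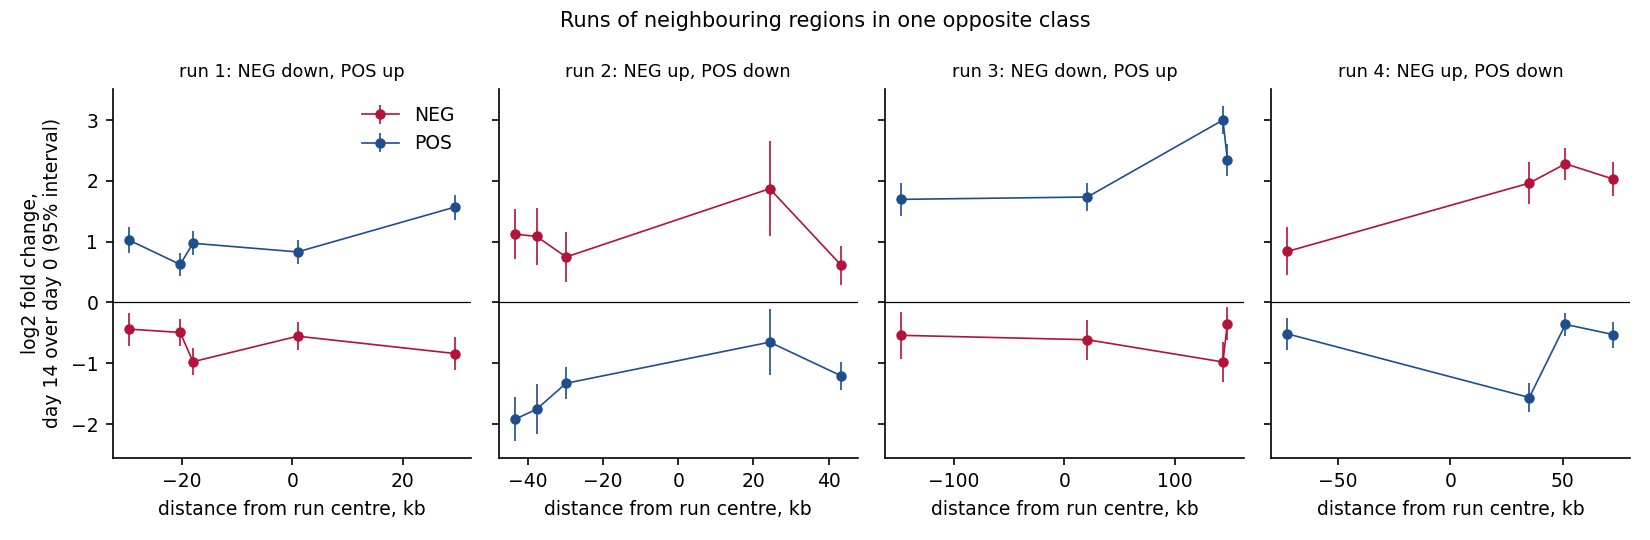
NEG and POS responses (y axis, log2 fold change of day 14 over day 0, with 95% intervals) of the regions in 4 runs against distance from the run's centre in kb (x axis). Runs 1 to 4 are those on chromosomes 18, 1, 17 and 3. In each the NEG and POS values stay on opposite sides of 0, as membership of an opposite class requires.

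The differences were uneven over chromosomes. Chromosome 19 had the most negative median difference, -0.50 over 425 regions, with a median response of 0.14 in NEG and 0.75 in POS. The difference was called POS higher at 196 of its regions (46.1%) and NEG higher at 60 (14.1%). Chromosomes 3 and 5 had the most positive medians, 0.30 and 0.29, with median responses of 0.00 and -0.03 in NEG and -0.25 and -0.30 in POS. Regions up in NEG and down in POS made up 6.80% and 7.37% of their regions, against 4.77% of all. Over the same chromosomes the acute medians lay near 0, with 0.08 in NEG and -0.01 in POS on chromosome 19. The median of POSR over POS was 0.54 on chromosome 19, the highest of the chromosomes tested, and -0.12 and -0.23 on chromosomes 3 and 5, against -0.03 over all regions.

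Responses also followed the level before treatment, taken from the separate DMSO libraries. Over 5 groups of equal size, from the lowest to the highest level, the median NEG response fell from 0.20 to -0.26 and the median POS response from 0.28 to -0.20, so the median difference stayed between -0.05 and 0.05. Regions down in NEG and up in POS were concentrated at high levels, with 1.57% of the lowest group and 10.5% of the highest. The share of all regions with a called difference was 46.9% in the lowest group and 74.0% in the highest. Regions up in NEG and down in POS made up 3.37% and 4.37%. Under cyclic loess, which removes a trend of each response with level, there were 881 regions up in NEG and down in POS and 555 of the mirror class.

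The authors' own calls shared these classes unequally. In the authors' deposited tables, 173 of the 754 regions up in NEG and down in POS carried the same 2 calls, and 37 of the 749 down in NEG and up in POS did. Over all 15794 matched regions, those calls occurred at 203 and 37 in the authors' deposited tables. Of the POS-only regions, the same was true in the authors' deposited tables for 2143 of 2197 downward and 1091 of 2578 upward ones. Over all matched regions, those patterns occurred at 5187 and 1882 in the authors' deposited tables. The downward POS-only pattern was thus the most frequent there of those listed. The same 2 calls were found in the authors' deposited tables for 156 of 466 upward and 90 of 438 downward NEG-only regions. Over all matched regions, those patterns occurred at 530 and 253 in the authors' deposited tables. The median log2 fold change over the matched regions was -0.03 for NEG and -0.53 for POS in the authors' deposited tables, which test each subpopulation alone and do not test the difference.

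The depth behind these values was 1861227 to 5713610 counts per library in the day 14 tables and 1249197 to 3251050 in the matched regions, lowest in NEG at day 14. The median count per matched region was 59 to 138. Replicates differed by more than counting noise in all 4 groups, by 1.09 to 1.60 times the variance that counting alone gives, and their log2 CPM correlated at 0.96 to 0.98 over regions.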

How the data were processed

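Of 36 samples, 22 are H3K27ac libraries, 4 JUNB and 10 inputs, and inputs were not used here. The submitters' processing notes name hg19 and 5 tools (STAR 2.5.2b, cutadapt 1.12, MACS2, DESeq2, featureCounts), without their roles or settings. Raw whole-number counts, not normalized, were deposited by the authors in 7 tables, over regions 1001 bases wide (201 for JUNB). The authors also deposited DESeq2 log2 fold changes and adjusted p-values, used here for the 2 day 14 comparisons and left missing where missing. Region starts and ends are as deposited, and no header says whether they count from 0 or 1. Count columns with another drug code were taken as the acute trametinib arm, as their table is named.

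Groups come from the sample titles. Regions of the 2 day 14 tables were joined by reciprocal overlap of at least 50%, largest overlap first, which puts counts of 2 region sets side by side. All 8 libraries were fitted together with edgeR 4.0.16 (limma 3.58.1, R 4.3.3): filterByExpr with a minimum count of 10, TMM over the matched regions, 1 mean per group, quasi-likelihood tests and Benjamini-Hochberg adjustment over all 15794 regions, threshold 0.05. The fit found no spread particular to single regions and pooled it over all, with 63176 residual degrees of freedom, so a region noisier than the rest is judged by the common spread. SE and 95% intervals come from this fit. The acute, DMSO, POSR and JUNB tables were fitted the same way on their own, and their regions were placed by the same overlap, JUNB sites by 50% of the site inside the region. POSR1 and POSR2 were fitted with separate means, and the average of these was set over POS. The errors of that comparison leave out the spread between POSR1 and POSR2. The fit was also run on simulated counts with the same means in all groups, apart from a small set of regions changed in NEG at day 14. Called differences are far more common in the real data, so that run does not bear on the choice of scaling. Replicate numbers are shared by the groups, but deviations of same-numbered libraries correlated at -0.01 to 0.10, so the numbers were not taken as pairs. Counts are of PCR-amplified reads without molecular identifiers, so the precision a count gives covers counting error only.

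Named regions were, per class, those with a called difference of 2-fold or more, a level at or above the median and libraries not overlapping between days in each responding subpopulation. The 4 first were taken in the opposite classes by the smaller of both absolute responses, the 4 first in single-subpopulation classes and the first in same-direction classes by absolute difference, skipping any within 1 Mb of one already taken. The members and the rules were chosen with earlier results of these data known. No hg19 annotation or sequence was at hand, so gene lists, marker checks and sequences were not analysed here. Alternatives were other scalings, DESeq2 1.42.0, filters, overlaps of 80% and 25%, an adjusted p of 0.01, a replicate block and leaving out each library. Python 3.11.15, numpy 2.4.6, pandas 2.3.3, scipy 1.17.1 and matplotlib 3.10.9 were used for tables and plots.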

Additional observations from a re-analysis of the deposited data

Results flagged for a closer look

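The response to 14 days differed between NEG and POS by a test of the difference itself at 9891 regions, and the acute response differed at 4650 regions by the same test in other libraries (edgeR quasi-likelihood, Benjamini-Hochberg). The values that follow are log2 response differences, NEG minus POS, of the named regions, each past the threshold.

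Up in NEG and down in POS, the difference was 4.32 at chr8:67383053-67384054, 4.80 at chr6:125064476-125065477, 3.53 at chr3:186887822-186888823 and 2.94 at chr6:12354710-12355711. Down in NEG and up in POS, it was -3.95 at chr20:55622121-55623122, -3.25 at chr17:47178394-47179395, -4.02 at chr7:7162563-7163564 and -2.45 at chr19:33783665-33784666.

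Up in NEG alone, it was 2.19 at chr3:154903274-154904275, 2.15 at chr3:191073815-191074816, 2.02 at chr1:41966068-41967069 and 1.94 at chr5:174714762-174715763. Down in NEG alone, it was -2.28 at chr8:128323220-128324221, -2.0 at chrX:107642574-107643575, -1.83 at chr5:110235154-110236155 and -1.77 at chr6:45593230-45594231. Up in POS alone, it was -3.89 at chr3:46014139-46015140, -3.75 at chr19:39327600-39328601, -3.64 at chr12:1714256-1715257 and -3.62 at chr6:52783138-52784139. Down in POS alone, it was 4.17 at chr5:81684612-81685613, 3.96 at chr2:206633530-206634531, 3.91 at chr11:65782314-65783315 and 3.90 at chr2:224563661-224564662.

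Where both moved the same way, it was 2.47 at chr2:191143765-191144766, -3.94 at chr22:31588475-31589476, -1.63 at chr18:2304358-2305359 and 3.98 at chr10:79497576-79498577.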

How the results depend on the processing

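With 2 libraries a group and 59 to 138 counts at the median region, a response not called is not shown to be absent, given median standard errors of 0.18 in NEG and 0.17 in POS on the log2 scale. The balance of the classes depended on the scaling, and which scaling is right was not tested.

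Up in NEG and down in POS (754 regions) there were 1198 with total counts, 1219 with full-table TMM, 359 with DESeq2 and 492 at an adjusted p under 0.01. Down in NEG and up in POS (749) there were 428, 310, 385 and 474 under the same settings. Full-table TMM also gave 7578 differences with NEG higher and 2435 with POS higher, with 1287 regions up and 3497 down in POS alone. The share of the first class with a higher acute NEG difference (44.7%) was 38.8% with total counts, 36.9% with full-table TMM, 39.4% with cyclic loess and 52.6% with DESeq2. The share of the second with a higher acute POS difference (34.2%) was 38.7% with total counts, 42.3% with loess and 40% with DESeq2. The share of the first lower in NEG in DMSO (54.0%) was 62.5% with DESeq2. The share of the second higher in NEG in DMSO (40.5%) was 48.6% with full-table TMM, 54.9% with loess and 36.5% with DESeq2. These shares under other class definitions, and loess, were chosen after the data were seen. Counting a JUNB site at an overlap of 1 base gave 98.1% and 94.4% of the opposite classes and 90.5% and 96.3% of the regions up and down in POS alone. The causes were not tested.

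The other 114 comparisons of a main count or share with an alternative stayed within 1.5 times or within their interval, and all values of the named regions, 224 without 1 library and 307 under other settings, kept direction and call. Without 1 library, called differences numbered 9000 to 9764, NEG higher 4549 to 4986, POS higher 4399 to 4778, the 2 opposite classes 563 to 779 and 500 to 778, NEG alone 361 to 521 up and 342 to 482 down, and POS alone 2283 to 2886 up and 1996 to 2535 down. Acute differences numbered 3392 to 5294 (4650 with all), DMSO 37407 to 46052, POSR 27622 to 32549 and JUNB 62675 to 73772 against 81944. Upward regions with the larger response in POS were 540 without NEG day 14 replicate 2, against 891.

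With the replicate number as a block within each subpopulation, 9819 differences were called, with 737 and 715 regions in the opposite classes. The numbers were not taken as pairs, and the block moved no count by over 1.5 times.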
